A study of Mus musculus with 34 samples.

Results

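The Dlx genes Dlx1, Dlx2, Dlx5 and Dlx6 and the forebrain regulators Gsx2 and Sp9 were followed across the brain of the 3-day-old mouse. The 6 genes were matched to probes of the array through the RefSeq accessions in the scanner files, which gave 7 probes of the 55681 on the array that are not controls, and 6 of the 20141 genes with a matched symbol. Gsx2 had 2 probes, A_51_P520468 and A_55_P2052071, and each other gene had 1. All 7 were among the 34186 probes (61.4%) taken into the tests, those whose spots rose well above background somewhere along every one of the 3 axes.

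The brains came from 3 male C57BL/6J mice aged 3 days, and each was sliced along its own axis into slabs 500 μm wide. Mouse 1 gave 15 coronal slabs, mouse 2 gave 8 horizontal ones and mouse 3 gave 11 sagittal ones, called fractions here. RNA of a fraction was hybridized to 1 Agilent expression array with a single dye, so there are no replicate arrays and an axis cannot be told apart from its mouse. Sagittal fractions 1 and 11 each pooled 2 cuts. Values are log2 normalized signals, the log2 of the background-subtracted spot signal less the 75th percentile of its array, on which a difference of 1 is a 2-fold difference, and p-values describe positions within 1 brain and not other mice.

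Dlx1, Dlx2, Dlx5 and Dlx6 encode homeodomain transcription factors that are made in the ganglionic eminences, the ventral germinal zones of the embryonic forebrain, and that are needed for the making and migration of GABAergic neurons of the striatum, cortex and olfactory bulb. Gsx2 is a homeodomain factor of the dividing cells of the lateral ganglionic eminence and acts upstream of the Dlx genes, and Sp9 is a zinc finger factor of the neurons that follow. The Dlx genes lie in pairs that face each other in the genome, Dlx1 beside Dlx2 and Dlx5 beside Dlx6, and RNAs read from the opposite strand of each pair, Dlx1as and Dlx6os1, are also on the array.

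Of the 6 genes, 4 had a promoter sequence in the RefSeq table of build GRCm38.p6. The 250 bases before the start of Dlx2, Gsx2 and Sp9 are shown. From coronal fraction 11 to 15 Dlx2 and Sp9 rose and Gsx2 fell, and a tie between the motifs and these profiles was not tested. Capitals mark matches on either strand to 4 short motifs that did not overlap. An E-box was searched as CACGTG and a TATA box as TATAAA. The CCAAT box was searched by these letters, and a GC box as GGGCGG.
Dlx2, chr2:71546755-71547004, minus strand: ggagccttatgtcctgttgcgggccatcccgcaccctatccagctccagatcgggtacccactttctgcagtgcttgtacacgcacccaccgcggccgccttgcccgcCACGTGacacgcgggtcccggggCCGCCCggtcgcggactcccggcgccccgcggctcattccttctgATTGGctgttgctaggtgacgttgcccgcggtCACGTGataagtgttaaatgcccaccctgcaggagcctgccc
Gsx2, chr5:75075351-75075600, plus strand: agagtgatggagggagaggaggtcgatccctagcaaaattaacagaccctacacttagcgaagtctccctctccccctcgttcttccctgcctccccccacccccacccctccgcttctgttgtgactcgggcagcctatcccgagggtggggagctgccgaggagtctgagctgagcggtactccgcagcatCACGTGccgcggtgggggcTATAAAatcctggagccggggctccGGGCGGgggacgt
Sp9, chr2:73271676-73271925, plus strand: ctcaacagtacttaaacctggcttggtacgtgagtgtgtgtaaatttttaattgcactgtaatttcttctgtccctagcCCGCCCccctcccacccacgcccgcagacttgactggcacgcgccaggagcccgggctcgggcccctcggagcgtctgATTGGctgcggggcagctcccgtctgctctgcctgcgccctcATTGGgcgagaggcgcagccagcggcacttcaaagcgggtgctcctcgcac
The core of many homeodomain sites, TAATTA, was also searched and was in none of the 3 windows. Another form of E-box, CAGCTG, was in none of them either. The window of Dlx1, the other gene with a sequence, is not shown and held none of the motifs searched. Of the 32851 promoters of this length in the table, 6.02% held CACGTG and 12.4% held TATAAA. The CCAAT box was in 33.8%, the GC box in 32.7%, the homeodomain core in 4.84% and the other E-box in 13% of them. The Dlx2 window held CACGTG at 2 places, starting 142 and 42 bases before the start, and the Gsx2 window held it once, 57 bases before the start. The Gsx2 window was the only one of the 3 with TATAAA, 38 bases before the start, and the Sp9 window held CCAAT, read on the opposite strand, at 2 places. The GC content of the windows was 66.4% for Dlx2, 63.6% for Gsx2 and 62.4% for Sp9, against a median of 52.4% over all promoters.

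Along the coronal series all 6 genes rose from the low-numbered to the high-numbered fractions. The hindbrain Hox genes of a marker list were highest in coronal fractions 1 to 3 (8 of 8), and the olfactory bulb markers had a median highest fraction of 15, so the labels' numbers run from the hindbrain end to the olfactory bulb end. Dlx1 and Dlx2 were not well above background in fractions 1, 2 and 3, were first detected in fraction 4 at -4.71 and -4.03, and reached -0.06 and 0.15 by fraction 6. From there Dlx1 rose to 3.29 in fraction 15 and Dlx2 to 3.16 in fraction 14, with medians over the 15 fractions of 1.46 and 1.50. The highest signal was 360-fold above a mean bound over the first 3 fractions for Dlx1 and 329-fold for Dlx2. This mean bound averages, over the undetected fractions, the lowest signal that counted as detected on the array, or the probe's own signal if higher. It is not a limit for each single fraction, as the lowest detected signal was -4.61 in fraction 1.

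Dlx5 was first detected 1 fraction further along, in fraction 5 at -3.89, and was at -0.53 in fraction 9. It was highest in fraction 15 at 1.16, 86.7-fold above the mean bound of the 4 fractions in which it was not detected. Dlx6 was near the limit of detection up to fraction 5 and ran between -4.99 and -4.45 there, with fractions 1 and 5 not well above background. Its signal then rose to -0.67 in fraction 12, 15.2-fold above the mean bound of the 2 undetected fractions. The highest coronal fraction was 15 for Dlx5 and 12 for Dlx6, but the margin was small for Dlx6. In fractions 10, 11, 14 and 15 Dlx6 read -0.89, -0.83, -0.93 and -0.92. Fraction 12 also lay on another array slide than the other coronal fractions, so separate peaks of these genes are not shown. The highest coronal fraction was one of 10 to 15 for 7 of 7 probes, as it was for 56% of all tested probes.

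Gsx2 was the last of the genes to be detected. The probe A_55_P2052071 was first detected in fraction 6 at -4.75 and the probe A_51_P520468 in fraction 7 at -4.47. As these probes of the same gene differed, the fraction of first detection also depends on the probe. The order of first detection was not tested as an order of the genes in space. Both Gsx2 probes were highest in fraction 12, at -0.62 and -1.32. These highest signals were 23.4-fold and 14.4-fold above the mean bounds of the fractions in which the probes were not detected. Where both were detected, in 23 fractions of the 3 series, A_55_P2052071 read higher by 0.85 ± 0.21 (SD), so in those fractions the probes ran nearly in parallel. The gap could be wider where A_51_P520468 was not detected, as in horizontal fraction 2 (-4.31 against -6.41). Sp9 was not detected in fractions 1 and 2 and was at -4.50 in fraction 3. It was highest in fraction 15 at -0.06, 32.2-fold above the mean bound of the undetected pair.

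**Figure D1:**
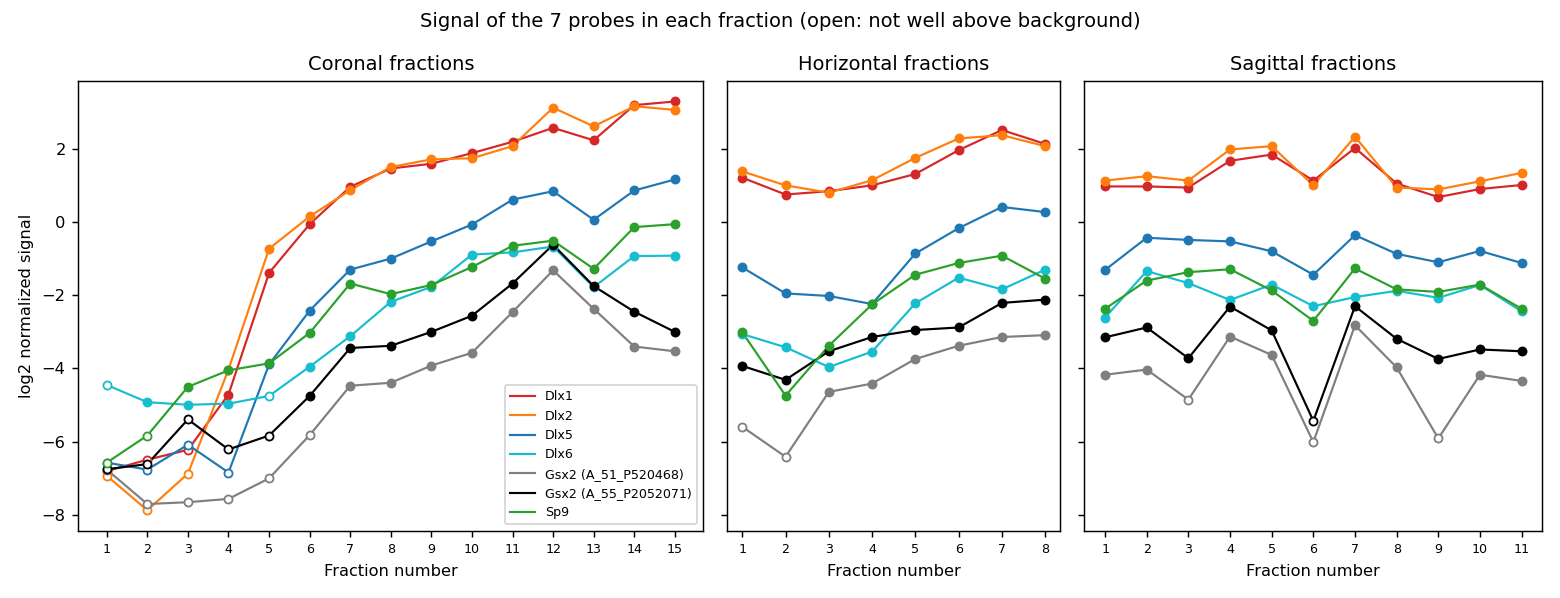
Log2 normalized signal (y axis) of the 7 probes against fraction number (x axis) in the 15 coronal, 8 horizontal and 11 sagittal fractions, with 1 array per fraction and no error bars. Open points are not well above background. All 7 lines are higher in coronal fraction 12 than in fraction 4, the Gsx2 lines turn down after fraction 12, and the horizontal lines are highest in fractions 7 and 8.

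A change with coronal position was tested with limma for all 34186 probes, as a smooth curve over the 15 fractions, and 60.6% of them passed an adjusted p under 0.05. All 7 probes passed, with adjusted p-values of 5.9e-07 for Dlx1, 4.07e-06 for Dlx2, 1.24e-06 for Dlx5, 7.12e-07 for Dlx6 and 9.09e-07 for Sp9 (limma, n = 15 fractions). For Gsx2 they were 7.46e-06 (A_55_P2052071) and 6.71e-06 (A_51_P520468). A call was thus common among all probes, and the size of the change was less so: with signals below the lowest detected level of an array raised to that level, the range over the 15 fractions was 8.81 for Dlx1, 8.68 for Dlx2, 6.68 for Dlx5, 4.32 for Dlx6 and 5.47 for Sp9, against a median of 1.12 for all tested probes. For Gsx2 it was 4.90 (A_55_P2052071), and the smallest range of the 7, that of A_51_P520468, lay at the 98.7th percentile of all tested probes. After a normexp background correction, which lifts low signals, the ranges were smaller, from 2.23 (Dlx6, at the 96.8th percentile) to 6.57 (Dlx2), beside a median of 0.83.

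Coronal fractions 1 to 8 lay on 1 array slide and fractions 9 to 11 and 13 to 15 on another, while fraction 12 lay on a slide shared with the other series. For the Dlx genes and Sp9 most of the rise was found within the first slide. Between fractions 4 and 8 Dlx1 rose by 6.17, Dlx2 by 5.53, Dlx6 by 2.79 and Sp9 by 2.09, where the middle 90% of all tested probes moved by between -0.81 and 0.73. Dlx5 rose from its first detected value of -3.89 to -1.30 in fraction 7 on that slide. For Gsx2 more of the rise came after it: A_55_P2052071 went from -4.75 in fraction 6 to -3.38 in fraction 8, and then to -1.68 in fraction 11 on the second slide and -0.62 in fraction 12. The step across the slides, from fraction 8 to 9, was 0.13 for Dlx1 and at most 0.47 (Dlx5 and one Gsx2 probe). With the slide as a term in the fit all 7 calls held, with adjusted p-values between 0.000161 (Dlx1) and 0.00148 (Dlx6) from limma. In bulk tissue a fraction with fewer cells of a type cannot be told from one with less RNA per cell.

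At the high-numbered end the genes parted. Of the linear signal of Dlx1 summed over the coronal series, 50.3% lay in fractions 13 to 15 and 30.3% in fractions 10 to 12. For Dlx2 these shares were 47.4% and 32.9%, for Dlx5 45.2% and 37.9%, and for Sp9 43.5% and 33.7%. The order was the other way round for Dlx6, with 34.1% in fractions 13 to 15 and 43.8% in fractions 10 to 12, and for Gsx2, with 28% and 52.3% (A_55_P2052071) or 30% and 53.3% (A_51_P520468). Fraction 12, the highest for Dlx6 and both Gsx2 probes, lay on another slide. The Dlx6 shares also rest on a low single array in fraction 13 (-1.78).

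Fractions 11 and 15 lay on the same slide and can be set against each other without the slide of fraction 12. From 11 to 15 Dlx1 rose from 2.19 to 3.29, a 2.13-fold difference, Dlx2 by 0.99, Sp9 by 0.60 and Dlx5 by 0.54 on the log2 scale. Over the same step Gsx2 fell by 1.32 (A_55_P2052071) and by 1.08 (A_51_P520468), a 2.51-fold and a 2.11-fold difference. Dlx6 was nearly level, at -0.83 and -0.92. Of all tested probes 50.4% were higher in fraction 15 than in fraction 11, and the middle 90% moved by between -1.23 and 1.29. Only the Gsx2 probe A_55_P2052071 fell outside that range, and only just, so shifts of these sizes are not rare among all probes. Each value is a single array, and repeated spots of a probe on 1 array differed by an SD of 0.072 above a log2 signal of 0, 0.105 between -2 and 0, and 0.173 between -4 and -2.

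**Figure D2:**
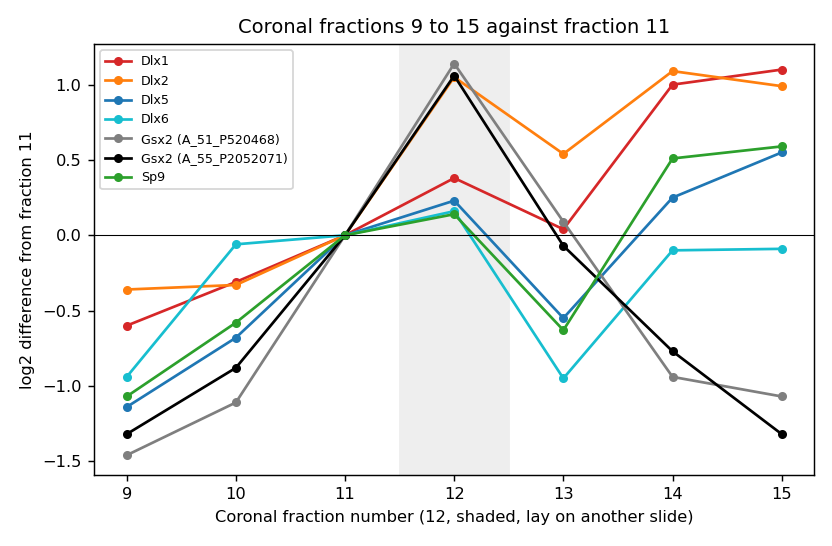
Difference in log2 normalized signal from coronal fraction 11 (y axis) for the 7 probes in coronal fractions 9 to 15 (x axis), 1 array per fraction. The shaded fraction 12 lay on another slide. In fraction 15 the Gsx2 probes are 1.08 and 1.32 below fraction 11, and Dlx1 and Dlx2 are about as far above it.

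Along the horizontal series the genes were higher in the high-numbered fractions. The hypothalamic and prethalamic markers had a median highest fraction of 8 and the pallial glutamatergic markers, genes of the dorsal cortex, one of 2.5, so the high numbers are the ventral side. Dlx1 had a lowest value of 0.75 in fraction 2, a median of 1.26 and a highest value of 2.51 in fraction 7. Dlx2 ran from 0.80 in fraction 3 to 2.37 in fraction 7 with a median of 1.56, and Dlx5 from -2.24 in fraction 4 to 0.41 in fraction 7 with a median of -1.05. Dlx6 was lowest in fraction 3, at -3.96, and highest in fraction 8, at -1.30. For Dlx1, Dlx2, Dlx5 and Dlx6 each of fractions 6 to 8 was above each of fractions 1 to 4, and so it was for Sp9 and both Gsx2 probes. The share of all tested probes with this order was not counted, and fractions 3 and 4 lay on another slide.

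The Gsx2 probe A_55_P2052071 ran from -4.31 in fraction 2 to -2.12 in fraction 8, and the other Gsx2 probe was not well above background in fractions 1 and 2. Sp9 had the widest horizontal range of the 7 probes, from -4.74 in fraction 2 to -0.92 in fraction 7, a 14.2-fold difference. The highest fraction was one of 6 to 8 for 7 of 7 probes, against 28.3% of all tested probes. The mean of fractions 5 to 8 exceeded that of fractions 1 to 4 by 1.03 for Dlx1, 1.04 for Dlx2, 1.78 for Dlx5, 1.77 for Dlx6 and 2.09 for Sp9.

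In the test across all probes 1.72% passed along the horizontal axis, and 3 of the 6 genes did: Dlx2 (adjusted p = 0.025), Dlx5 (adjusted p = 0.0274) and Dlx6 (adjusted p = 0.0375), all from limma with n = 8 fractions. Dlx1 (adjusted p = 0.0536), Gsx2 (adjusted p = 0.0585 and 0.0672) and Sp9 (adjusted p = 0.0821) did not pass in the same limma fit. Leaving out any 1 of fractions 2 to 8 ended the calls of Dlx2, Dlx5 and Dlx6, as did a slide term (adjusted p between 0.0839 and 0.0988, limma), and Dlx6 was also lost without fraction 1 (adjusted p = 0.0823, limma). Within the slide that held fractions 1, 2 and 5 to 8, fraction 7 was above fraction 2 by 1.76 for Dlx1, 1.37 for Dlx2, 2.36 for Dlx5, 1.58 for Dlx6 and 3.82 for Sp9, where the middle 90% of all tested probes lay between -1.03 and 1.06. Fraction 7 was the highest fraction of Dlx1, Dlx2, Dlx5 and Sp9, and fraction 2 the lowest of Dlx1 and Sp9. The pair was chosen after the values were seen, so these differences add no test to the calls lost with a slide term.

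Fraction 1, at the dorsal end, did not have the lowest signal. All 7 probes read higher there than in fraction 2, where 45.9% of all tested probes were higher in fraction 1, and both arrays were on the same slide. The difference was 1.73 for Sp9, 0.71 for Dlx5, 0.46 for Dlx1, 0.38 for Dlx2 and 0.36 for Dlx6. The middle 90% of all tested probes lay between -0.73 and 0.73, so Sp9 alone among these 5 genes fell outside that range. One Gsx2 probe differed by 0.38, and the other was not well above background in either fraction.

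The sagittal series gave a different picture, with a dip in fraction 6 and no simple slope. Dlx1 was 1.84 in fraction 5, 1.13 in fraction 6 and 2.02 in fraction 7, its highest value, with a median of 1.01 over the 11 fractions. Dlx2 was 2.07, 1.00 and 2.33 in the same 3 fractions. The Gsx2 probe A_55_P2052071 was not well above background in fraction 6 and was at -2.30 in fraction 7, at least 6.2-fold higher. Fraction 6 is taken here as the middle of the brain, which the labels do not state.

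Dlx5 was lowest in fraction 6, at -1.44, and highest in fraction 7, at -0.36, and Sp9 likewise at -2.70 and -1.27. For Dlx6 the lowest signal was in fraction 1, at -2.61, and the highest in fraction 2, at -1.34. All 7 probes were lower in fraction 6 than in both neighbours, as were 47.4% of all tested probes. Among the 5 genes detected in fraction 6, fraction 5 exceeded it by 0.58 (Dlx6) to 1.08 (Dlx2), where the 95th percentile of all tested probes was 0.55. Fraction 7 exceeded it by 0.88 for Dlx1, 1.33 for Dlx2, 1.08 for Dlx5 and 1.43 for Sp9, where the 95th percentile was 0.45, and by 0.25 for Dlx6, which was within the middle 90% of all tested probes. Neither Gsx2 probe was detected in fraction 6. These 3 fractions lay on 1 slide.

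Away from the middle the genes fell into different shapes. Dlx1 and Dlx2 were high in fractions 4, 5 and 7 and near their median from fraction 8 outward, whereas Dlx5 and Sp9 stayed up through fractions 2 to 4 and dropped in fractions 1 and 11. In the outermost fractions, 1 and 11, Dlx5 read -1.31 and -1.12, Dlx6 -2.61 and -2.44, and Sp9 -2.37 and -2.37, while Dlx1 read 0.97 and 1.01, beside its median of 1.01. Each of these 2 outermost samples pooled 2 cuts. Fractions 1, 10 and 11 lay on other slides than fractions 2 to 9, so a change at the outer ends cannot be told apart from the slide.

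**Figure D3:**
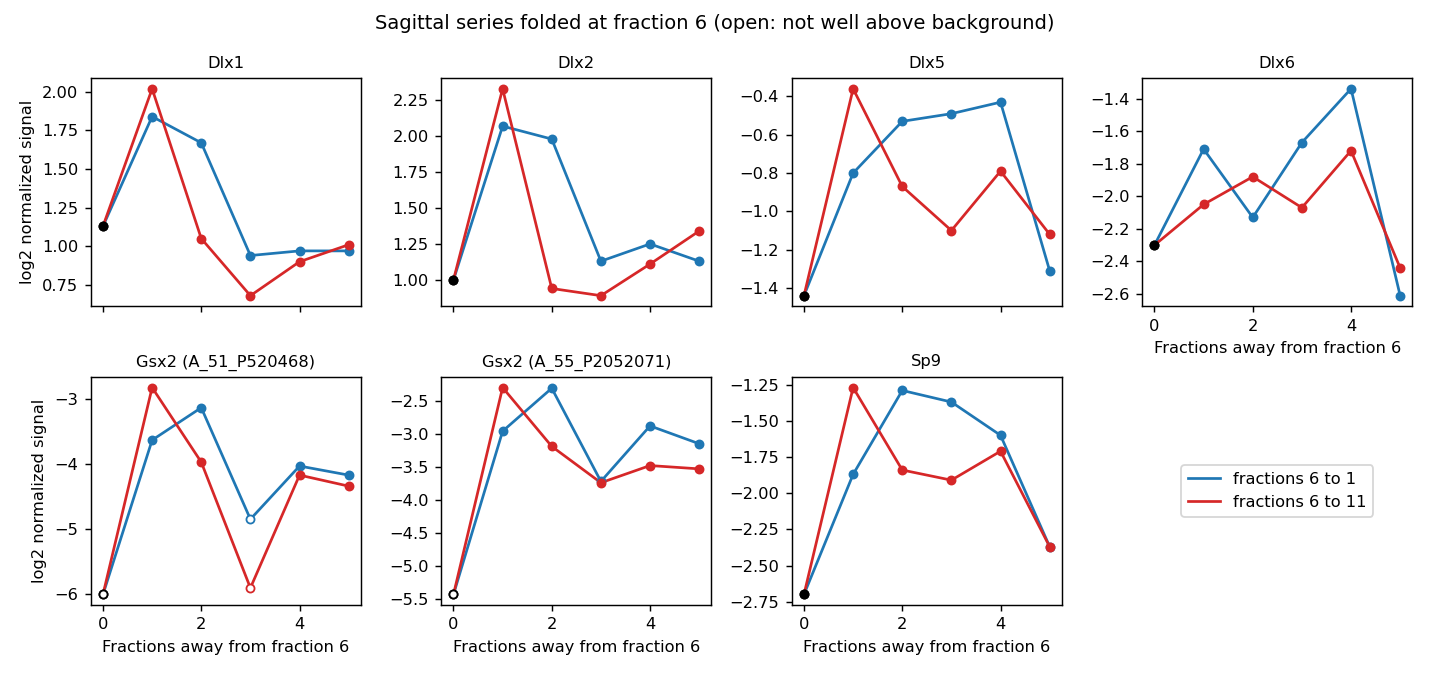
Log2 normalized signal (y axis, a separate scale in each panel) of the 7 probes against the number of fractions from sagittal fraction 6 (x axis), for fractions 6 to 1 and 6 to 11, 1 array per fraction. Open points are not well above background, and fraction 6, in black, is below both of its neighbours in all 7 panels.

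A change with the distance from fraction 6 was found by limma in 26.7% of the tested probes and in 1 of the 6 genes. Sp9 passed (adjusted p = 0.0283, limma, n = 11 fractions) with a curve that rose and then fell, and its straight slope was near 0 (-0.03 per fraction). Dlx5 (adjusted p = 0.145), Dlx6 (0.19), Dlx1 (0.227), Gsx2 (0.366 and 0.864) and Dlx2 (0.586) did not pass in limma. The Sp9 call was lost without any 1 of fractions 1, 3, 4, 6 and 11, with a slide term (adjusted p = 0.193, limma) and with the middle placed to either side of fraction 6 (0.178 and 0.373). Without fraction 6 Dlx1 (adjusted p = 0.00717, limma) and Dlx2 (adjusted p = 0.0286, limma) passed, both falling with distance.

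The sides of the sagittal series were compared with the mirror pairs of fractions as a block. No probe passed out of 34186 (0%) in limma, 3263 had an unadjusted p under 0.05, and limma-trend also called 0. Fractions 7 to 11 read lower than fractions 1 to 5 by 0.15 ± 0.12 for Dlx1, 0.19 ± 0.20 for Dlx2, 0.14 ± 0.17 for Dlx5, 0.14 ± 0.13 for Dlx6 and 0.12 ± 0.18 for Sp9 (difference ± SE, 5 pairs, limma adjusted p from 0.707 to 0.834). For Gsx2 the difference was 0.25 ± 0.23 (A_55_P2052071) and 0.28 ± 0.28 (A_51_P520468) in the same direction. The single pairs went both ways for every gene. In the pair of fractions 4 and 8 Dlx2 was lower in fraction 8 by 1.04, and in the pair of 5 and 7 it was higher in fraction 7 by 0.26.

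Likeness of the genes was described by Pearson's r along each axis, over 15, 8 and 11 fractions that share a brain, with no p. Over the 15 pairs of genes r lay between 0.862 and 0.993 in the coronal series, between 0.77 and 0.962 along the horizontal axis and between 0.014 and 0.954 along the sagittal axis. The neighbours Dlx1 and Dlx2 were the closest pair, with 0.993, 0.952 and 0.954. For the neighbours Dlx5 and Dlx6 the values were 0.945, 0.948 and 0.692. The sagittal series told the pairs apart: Dlx6 had an r of 0.014 with Dlx1 and 0.048 with Dlx2, and Dlx5 was closest to Sp9 with 0.947. Spearman's rho in the sagittal series was 0.682 for Dlx1 with Dlx2, below the Pearson value, and 0.945 for Dlx5 with Sp9.

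**Figure D4:**
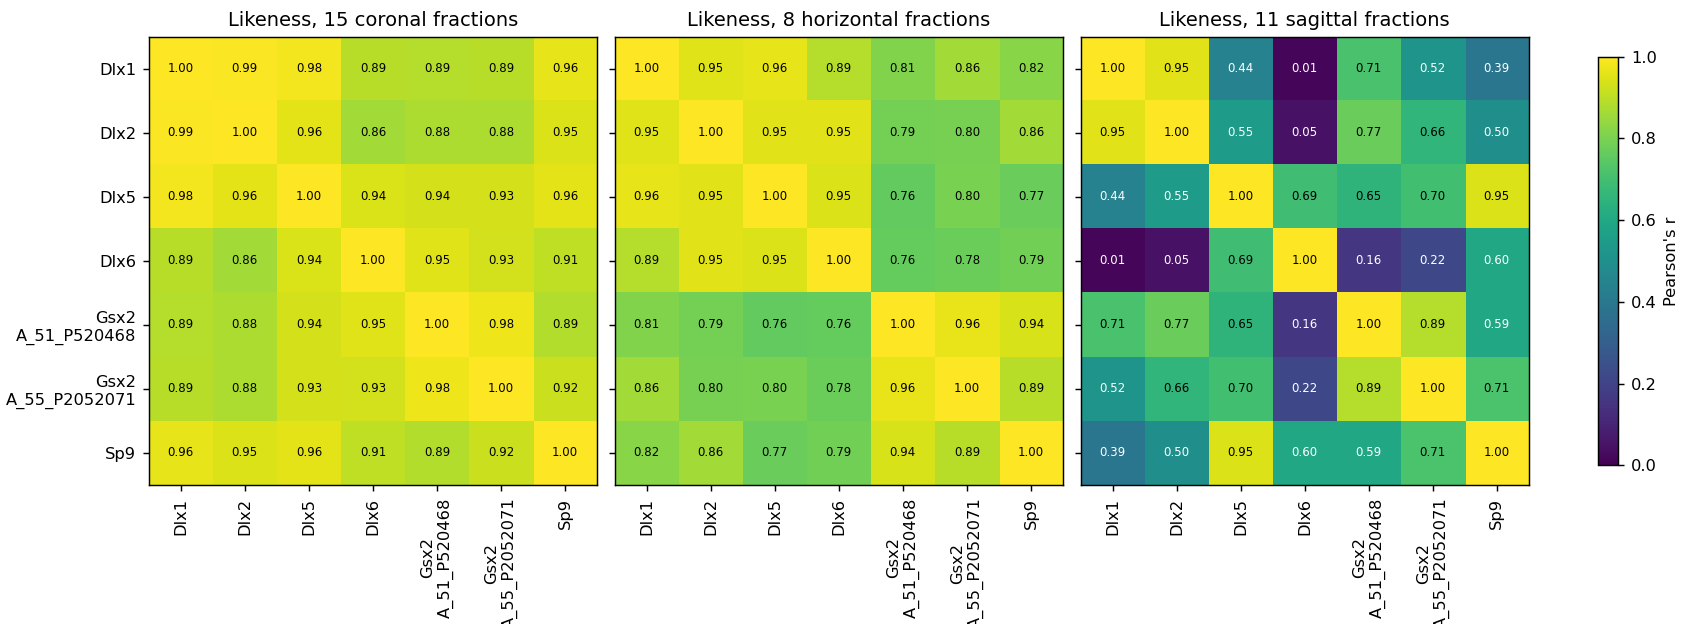
Pearson's r between each pair of the 7 probes (rows and columns) over the coronal, horizontal and sagittal fractions, with the colour scale from 0 to 1. Coronal and horizontal values are all 0.76 or higher, and the sagittal panel runs from 0.01 (Dlx1 with Dlx6) to 0.95.

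The antisense RNAs of the 2 loci did not have the same likeness to their neighbours. Dlx6os1, the RNA of the Dlx5 and Dlx6 locus, had an r with Dlx5 of 0.993 (coronal), 0.916 (horizontal) and 0.819 (sagittal), and with Dlx6 of 0.920, 0.824 and 0.432. Dlx1as had an r with Dlx1 of 0.978 and 0.692 in the first 2 series and -0.217 in the sagittal series. There Dlx1as was lowest in fraction 6, at -3.10, and highest in fraction 1, at -1.25, and rose outward by 0.32 per fraction on average (adjusted p = 0.00435, limma, n = 11 fractions). Dlx1 in the same fractions was 1.13 and 0.97. Sagittal fractions 1, 10 and 11 lay on other slides than fractions 2 to 9. On the slide of fraction 6, Dlx1as read -1.81 in fraction 2 and -2.98 in fraction 9.

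Of the other relatives, Sp8, a zinc finger factor related to Sp9, rose to 3.69 in coronal fraction 15 (adjusted p = 7.09e-05, limma) and had an r with Sp9 of 0.928, 0.949 and 0.329. Gsx1, the relative of Gsx2, went the other way in the coronal series: it was highest in fraction 2 at -0.75, fell to -3.82 in fraction 15 (adjusted p = 0.000162, limma) and had an r with Gsx2 of -0.412, against 0.768 in the horizontal and -0.047 in the sagittal series. Dlx3 was detected in all 34 fractions, between 0.69 and 1.60 in the coronal series, and did not pass there (adjusted p = 0.377, limma). Dlx4 was detected in 10 of 15 coronal fractions and passed with a fall towards fraction 15 (adjusted p = 0.0174, limma), a slope whose sign turned with a normexp background correction and with a floor at the background.

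Over all tested probes, likeness was taken as the lowest of the 3 r. Nearest to Dlx1 after Dlx2 were Vax1 (0.908, probe A_55_P2116880), a homeodomain factor of the ventral forebrain, and Sp8 (0.834), and after them Pdzph1 (0.813) and Cntnap2 (0.798), a neurexin family protein. Nearest to Dlx2 after Dlx1 were Sp8 (0.80), Vax1 (0.797), Cntnap2 (0.781) and Gsx2 (0.772). This Gsx2 value is that of A_51_P520468, and A_55_P2052071, the probe detected in more fractions, gave 0.657. Dlx5 was nearest to Dlx6os1 (0.819), Myh7 (0.798), a myosin heavy chain, Sp9 (0.77), Pdzd3 (0.715) and Islr2 (0.70). Few probes came this close: 14 reached 0.7 with Dlx1, 10 with Dlx2 and 6 with Dlx5.

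Dlx6 was nearest to Gm1604b (0.806), Myh7 (0.734), Shb (0.726), an adaptor protein, Meis2 (0.707), a homeodomain factor of the striatum, and Syt6 (0.704), and 7 probes reached 0.7. For Gsx2 the nearest were Nlk (0.772), a kinase, Dlx6os1 (0.735), Wnt7a (0.723), a Wnt ligand of ventricular zone cells, Sp9 (0.715) and another probe of Sp8 (0.701). Sp9 was nearest to Dlx6os1 (0.783), Meis2 (0.778), Dlx5 (0.77), Gsx2 (0.715) and Gm1604b (0.702). Neither Dlx1 nor Dlx2 was among the 5 named genes nearest to Dlx6, Sp9 or the Gsx2 probe A_55_P2052071. The other Gsx2 probe came closer to both, with a lowest r of 0.772 with Dlx2 and 0.714 with Dlx1.

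Lists of marker genes were set against the mean profile of Dlx1, Dlx2, Dlx5 and Dlx6. In the coronal series 11% of all tested probes had an r of 0.7 or more with that profile, in the horizontal fractions 7.13% and in the sagittal fractions 0.942%, and 0.0439% in all 3. The pallial glutamatergic markers mostly followed the Dlx profile along the coronal axis and ran against it along the horizontal axis, with a median r of 0.90 over 12 genes in the first and -0.84 in the second, beside medians over all tested probes of 0.13 and -0.06. Emx1, a homeodomain factor of the dorsal telencephalon, had an r of 0.977 (coronal) and -0.863 (horizontal), and Tbr1, a factor of cortical glutamatergic neurons, 0.957 and 0.069.

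Genes of GABA synthesis and transport followed the Dlx profile along the horizontal axis and not along the coronal axis. Gad1 and Gad2, the enzymes that make GABA, had an r of -0.149 and 0.068 along the coronal axis and of 0.954 and 0.948 along the horizontal axis. A gene is counted here and below as rising or falling by the sign of its straight slope, however small, where its curve passed the test. In the coronal test 0 of the 6 genes rose in this sense, 5 fell and 1 did not pass, where 35.8% of all tested probes rose and 24.8% fell. The slopes of Gad1 (-0.018 per fraction) and Gad2 (-0.009) were near 0, and both genes were highest in fraction 4. In the horizontal test 3 rose (Gad2, Slc32a1, the vesicular transporter of GABA, and Abat, which breaks GABA down), where 1.04% of all tested probes rose, and 3 did not pass. In the sagittal test all 6 fell away from fraction 6, where 10.3% of all tested probes fell.

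**Figure D5:**
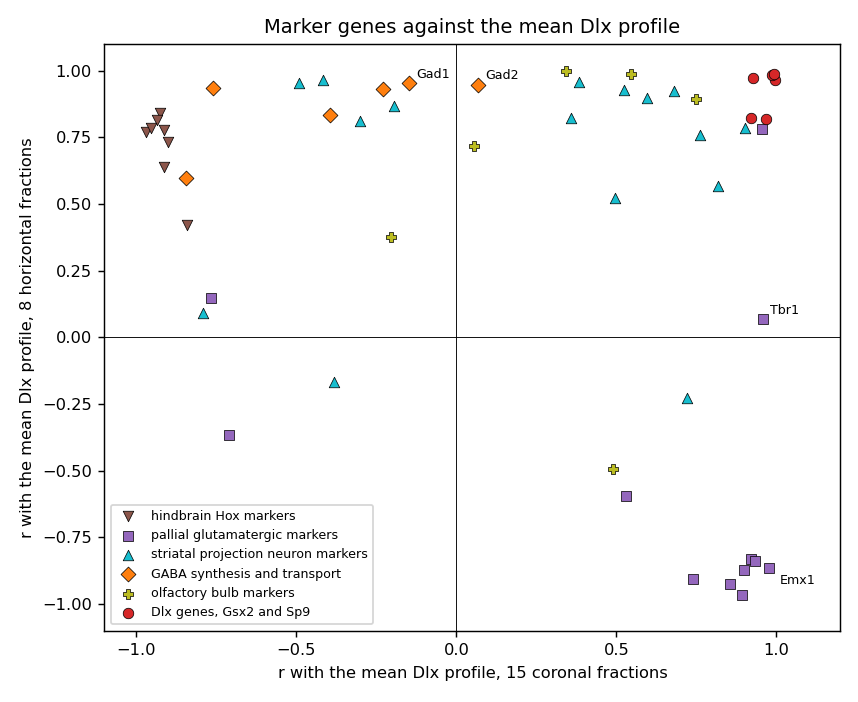
Pearson's r with the mean profile of Dlx1, Dlx2, Dlx5 and Dlx6 over the 15 coronal fractions (x axis) and the 8 horizontal fractions (y axis), 1 point per tested gene of 6 lists. Most pallial genes lie at the lower right, the GABA genes at the top centre and left, and the Hox genes at the upper left, while the Dlx genes, Gsx2 and Sp9 lie together at the upper right. The Dlx genes are part of the mean profile.

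Among 11 interneuron transcription factors 7 rose and 2 fell in the coronal test, where 35.8% of all tested probes rose and 24.8% fell. In the horizontal test 1 rose and 1 fell (1.04% and 0.687% of all tested probes), and in the sagittal test 6 rose and 3 fell away from the middle (16.4% and 10.3%). Lhx6, the factor of interneurons from the medial ganglionic eminence, had an r with the Dlx profile of 0.672, 0.254 and -0.391 in the coronal, horizontal and sagittal series and did not pass in the coronal test (adjusted p = 0.10, limma). Satb1, which acts in interneurons and also in the cortex, ran against the Dlx profile in the horizontal series (r = -0.989). Its r was 0.682 in the coronal series, where it rose (adjusted p = 0.000151, limma), and -0.45 in the sagittal series.

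Of 13 regulators of subpallial progenitors and patterning 6 rose and 7 fell in the coronal test (35.8% and 24.8% of all tested probes), and 3 rose in the horizontal test (1.04%), Nkx2-1, Vax1 and Six3. Vax1, here by the probe A_55_P2048833, had an r with the Dlx profile of 0.971, 0.986 and 0.593. Nkx2-1, which marks the medial ganglionic eminence and the hypothalamus, had 0.711, 0.966 and 0.402 and was highest in coronal fraction 10. Hes5 and Dll1, which act in Notch signalling, were detected in every coronal fraction and passed there, with slopes that turned sign under quantile normalization (Hes5) or a normexp background correction (Dll1).

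Striatal projection neuron markers, which mark neurons of the lateral ganglionic eminence, had their median highest coronal fraction at 11. Of 16 genes 10 rose and 4 fell in the coronal test (35.8% and 24.8% of all tested probes), with 1 slope (Pdyn) that turned sign under normexp and with a floor. In the horizontal test 5 rose (1.04%). Drd1, a dopamine receptor of these neurons, had an r of 0.818, 0.568 and -0.135, Isl1 of 0.594, 0.896 and 0.539, and Ebf1 of -0.793 in the coronal series, where it was highest in fraction 1. Lhx8, counted here among the interneuron factors, was highest in coronal fraction 11 and had an r of 0.796, 0.955 and 0.472. Olfactory bulb markers rose in the coronal test in 5 of 6 tested genes, beside the same 35.8%, and Tbx21, a factor of mitral and tufted cells, had an r of 0.546, 0.987 and 0.534.

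Genes of interneuron subtypes, 12 in all, rose in 7 and fell in 5 cases in the coronal test (35.8% and 24.8% of all tested probes), and 3 of these slopes turned sign under another scaling. Htr3a, a serotonin receptor of a class of cortical interneurons, followed the Dlx profile along the coronal axis (r = 0.959) and less along the horizontal axis (r = 0.133). Th, the enzyme of dopamine synthesis that is made in olfactory bulb interneurons and in the midbrain, had an r of 0.467, 0.924 and 0.449. Of 7 tested genes of interneuron migration 5 rose and 1 fell in the coronal test, beside the same shares, with 1 slope (Cxcr4) that turned sign on the array median, and 1 rose in the horizontal test (1.04%). Dcx, a microtubule protein of migrating neurons, had an r of 0.92 and -0.785.

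In the coronal test 35.8% of all tested probes rose and 24.8% fell. The hindbrain Hox genes fell in 8 of 8 cases with a median r of -0.92, and the cerebellar markers fell in 6 of 6. Thalamic markers fell in 5 of 7 and midbrain markers in 4 of 6, and the median r of these lists with the Dlx profile was -0.36 and -0.59. Among 12 tested prethalamic and hypothalamic markers 5 rose and 3 fell in the coronal test, and 9 were highest in fractions 4 to 9. Genes of muscle, skin and pituitary, listed to show tissue other than brain, passed in 1 of 7 cases in the coronal test, with a fall, in 0 of 7 in the horizontal test and in 1 of 7 in the sagittal test, where Acta1, the actin of skeletal muscle, rose outward (adjusted p = 0.00716, limma). Of all tested probes 60.6%, 1.72% and 26.7% passed in these tests, and the part of such tissue in the profiles was not tested.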

How the data were processed

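The 6 genes and the gene lists were chosen with earlier results of these data known. The authors scanned 34 one-colour arrays and ran Agilent Feature Extraction (version 10.10.1.1) on the images. The intensity values that the authors deposited are each spot's brightness and a processed signal with the background taken off, unscaled between arrays. The authors also deposited log2 values, and 99.92% of these differed by 0.02 or less from the log2 processed signal minus a single constant for the array.

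Spots of a probe were averaged (59305 spots and 55681 probes that are not controls), converted to log2, and the log2 75th percentile of the same array was subtracted. Detection required that the scanner's flag for well above background was set for the majority of a probe's spots. Per array 29598 to 37091 spots were well above background, none was saturated, and the number of arrays limits the precision. Names were found for 26576 probes in RefSeq's gene table (GRCm38.p6), and no coordinates of genes were taken from it. A bound on a fold was computed against the lowest signal among detected probes, or the probe's own signal if higher, averaged over the undetected fractions.

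The 34186 probes detected somewhere along every axis were fitted with limma 3.58.1 in R 4.3.3 (lmFit, eBayes, Benjamini-Hochberg threshold 0.05): a natural spline with 4 (coronal) or 3 (horizontal) degrees of freedom, the distance from sagittal fraction 6 with its square, and the sagittal side with mirror pairs, whose numbers add up to 12, as a block. These fits were also run on simulated data with planted changes and independent noise. The simulation held no slide effect and no likeness between neighbouring fractions, so it cannot show how the fits behave with either. The other values were computed with Python 3.11.15, numpy 2.4.6 and pandas 2.3.3. Where a gene had several probes, the one detected in most fractions was used for the lists and as the profile from which likeness was measured, while each of the nearest genes could be reached by any of its probes. Genes named are the 6 genes, 6 relatives fixed by list, the 5 named genes nearest to each, those with the highest and lowest likeness in each list, and 8 genes always given, with some genes of the lists not reported here; Satb1, Hes5, Dll1, Nkx2-1, Slc32a1, Abat, Htr3a, Th, Tbx21, Dcx, Six3, Acta1 and Lhx8 were named after their values were seen where that rule did not reach them. Comparisons of single fractions were likewise chosen after the values were seen. These were coronal 4 with 8, 11 with 15 and 13 with its neighbours, horizontal 1 with 2 and 2 with 7, and sagittal 6 with its neighbours. Alternatives were the array median, quantile normalization, normexp on the median signal with an offset of 50, the authors' values, a floor, other detection rules, limma-trend, a slide term, other curves and leaving out each fraction.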

Additional observations from a re-analysis of the deposited data

How the results depend on the processing

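No paired analysis was possible because the fraction numbers, positions along different axes of different mice, pair no samples between the series; the pairs of the sagittal side test are mirror positions within 1 brain. The coronal calls of all 7 probes held under all 27 alternatives. The count of probes called was 20704 in the coronal series, 12689 with a slide term and 9677 with a straight line, and leaving out single fractions gave 19136 to 21282. Of these calls 12231 rose and 8473 fell, against 10103 and 10166 after quantile normalization and 15114 and 6219 after normexp. The horizontal count of 589 was 2574 with normexp, 1115 with a floor at the background, 4 without a detection filter, 1068 when 50% of the fractions had to be detected, 4 with the weaker detection flag, 2185 with limma-trend, 2 with a slide term and 1071 with a spline of 2 degrees of freedom, and leaving out single fractions gave 0 (without fraction 3 or 4) to 458. The horizontal calls of Dlx2, Dlx5 and Dlx6 were lost under 12, 12 and 13 of 20 alternatives, and Dlx1, Sp9 and the Gsx2 probes passed under 4, 3, 6 and 7 of them, with adjusted p-values over the alternatives from 0.00105 (Dlx2) to 0.211 (Sp9) in limma. The sagittal distance count of 9120 was 6012 without a filter, 1310 with a slide term, 2880 with the middle at 5.5, and 5405 (without fraction 1) to 9001 with single fractions left out. Of the 9120, 5599 rose and 3521 fell with distance, against 8375 and 2414 on the array median and 9392 and 2746 after normexp. The call of Sp9 was lost under 11 of 24 alternatives, and its slope, near 0, changed sign where the call held on the array median (adjusted p = 0.0232, limma), with normexp (0.034) and without fraction 7 (0.0136), and leaving out single fractions gave 0.0136 to 0.0826. Dlx5 passed without fraction 9 (adjusted p = 0.0464, limma). The side count of 0 was 1 with a floor and 1 when 50% of the fractions had to be detected, and 0 with each mirror pair left out. The median coronal range of the 7 probes, 6.52, was 2.83 with normexp and 5.47 with a floor, both of which lift low signals by construction, and the highest coronal fraction moved only between 14 and 15 (Dlx1, Dlx5 and Sp9). The lowest r of the 15 gene pairs ran from 0.014 to 0.952 with a median of 0.548. That this median moved by less than so wide a spread under every alternative says little. Single pairs moved: Dlx1 with Dlx2 from 0.952 to 0.682 and Dlx1 with Dlx5 from 0.442 to 0.191, both with Spearman's rho. Gsx2 with Sp9 went from 0.715 to 0.488 without sagittal fraction 6, and Dlx1 with Gsx2 from 0.519 up to 0.825 under another alternative. Where no cause is named, the cause was not tested. Signals near the background, as for Gsx2 and for Dlx6 in coronal fractions 1 to 5, had repeated-spot SDs of 0.433 below -4.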

Other observations

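In coronal fraction 13 all 7 probes read lower than in fraction 12, and the 5 probes of Dlx1, Dlx2, Dlx5, Dlx6 and Sp9 also read lower than in fraction 14. For Dlx5 the values were 0.84, 0.06 and 0.86 in fractions 12, 13 and 14, and for Dlx6 -0.67, -1.78 and -0.93. Fractions 13 and 14 lay on 1 slide and fraction 12 on another. The share of all tested probes that read lower in fraction 13 was not counted, so the dip cannot be called particular to these genes. Myh7, a myosin heavy chain, was among the 5 named genes nearest to both Dlx5 (lowest r 0.798) and Dlx6 (0.734). Of the 20 probes nearest to Sp9, 11 had no matched gene symbol, as had 5 of 20 for Dlx5 and for Dlx6. Probes without a symbol were common on the array, where 26576 of 55681 probes that are not controls had one. The share among the tested probes was not counted.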
